A study of Caenorhabditis elegans with 16 samples.

Results

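The proteasome subunit genes of Caenorhabditis elegans were taken as all genes whose symbol in the deposited expression table begins with pas-, pbs-, rpt- or rpn- followed by a digit. The rule found 33 genes of the 46904 in the table, and all 33 were among the 15044 genes that passed the filter on low counts. Of these, 14 code for the core particle (7 pas genes and 7 pbs genes) and 19 match the names of the regulatory particle (6 rpt genes and 13 rpn genes). By name, 32 are canonical subunits and the remaining one, rpn-6.2, is a further copy beside rpn-6.1. The genes lie on 5 chromosomes of the WBcel235 build, with 10 on chromosome I, 7 on II, 8 on III, 3 on IV and 5 on V, and none on X.

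The proteasome is the large cytosolic and nuclear protease that degrades proteins tagged with ubiquitin, damaged and misfolded proteins among them. Its core particle is a barrel of stacked rings. The outer rings, made of the alpha subunits (pas), gate the entrance, and the inner rings, made of the beta subunits (pbs), carry the proteolytic sites. The regulatory particle caps the barrel. Its base holds a ring of AAA ATPases (rpt) that unfolds substrates together with scaffold proteins and ubiquitin receptors (rpn-1, rpn-2, rpn-10, rpn-13), and its lid (the other rpn subunits) removes ubiquitin chains before degradation. Subunits are needed in fixed ratios, and in many organisms their genes are transcribed together. In muscle, the ubiquitin-proteasome system is known for the turnover of sarcomere proteins and of their chaperones.

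The study asked how the whole animal responds when body wall muscle is repeatedly forced into sustained contraction (OptIMMuS). All 4 groups were young adults of a single integrated transgenic line (strain PP3189, integrated array hhIs251), in which the body wall muscle promoter of myo-3 drives FLAG-tagged channelrhodopsin-2 with the substitutions C128S and H134R, a light-gated cation channel. The array also holds the unc-54 UTR behind the channel and a C. briggsae unc-119 rescue gene, and controls carried it too. Worms were raised at 18 °C on E. coli OP50, either without all-trans retinal (ATR) or with 0.1 mM of it. By the study's methods ATR was given from the first larval stage, or from the last larval stage at the latest. Without this cofactor the channel does not work. In the 2 light groups (light+ATR and light−ATR) they received 5 s pulses of blue light at 455 nm, each followed by 20 min of darkness, for 8 h, and in the 2 dark groups (dark+ATR and dark−ATR) they received none. By the study's account, white room light at collection can also open the working channel, with a weaker contraction that leaves no sustained effect. The dark+ATR worms may thus not have been wholly unstimulated. Each group had 4 libraries of poly(A) RNA from pooled whole worms, 16 in all, which the study describes as independent biological replicates. Animals that ruptured under treatment had been removed by sedimentation. The study describes this rupture, in which eggs and germline tissue are lost, for worms given both ATR and light pulses. The removal therefore bore on light+ATR and cannot be told apart from that condition.

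Library depth ranged from 19264315 to 32374024 counts on genes, of which the 33 proteasome genes took 0.789% to 0.928%. Expression is given below as CPM (counts-per-million, with library sizes scaled by the TMM method). The TMM factors were 1.04 to 1.05 in light+ATR and 0.966 to 1.01 in the controls. Body wall muscle, intestine, neuron, hypodermis, germline and sperm markers were all present, as the whole-worm label requires, while only 2 of 8 early embryo markers passed the filter. The control groups were not uniform for proteasome genes. In light−ATR, replicate 2 was the highest of its group for all 32 canonical genes, and in dark−ATR replicate 2 was the highest for 25 and replicate 3 the lowest for 21. In dark+ATR replicate 1 was the highest for 28 and replicate 4 the lowest for 23. The median coefficient of variation over the 32 genes was 6.90% in light−ATR and 7.90% in dark−ATR, but 3.10% in light+ATR and 3.24% in dark+ATR.

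**Figure D1:**
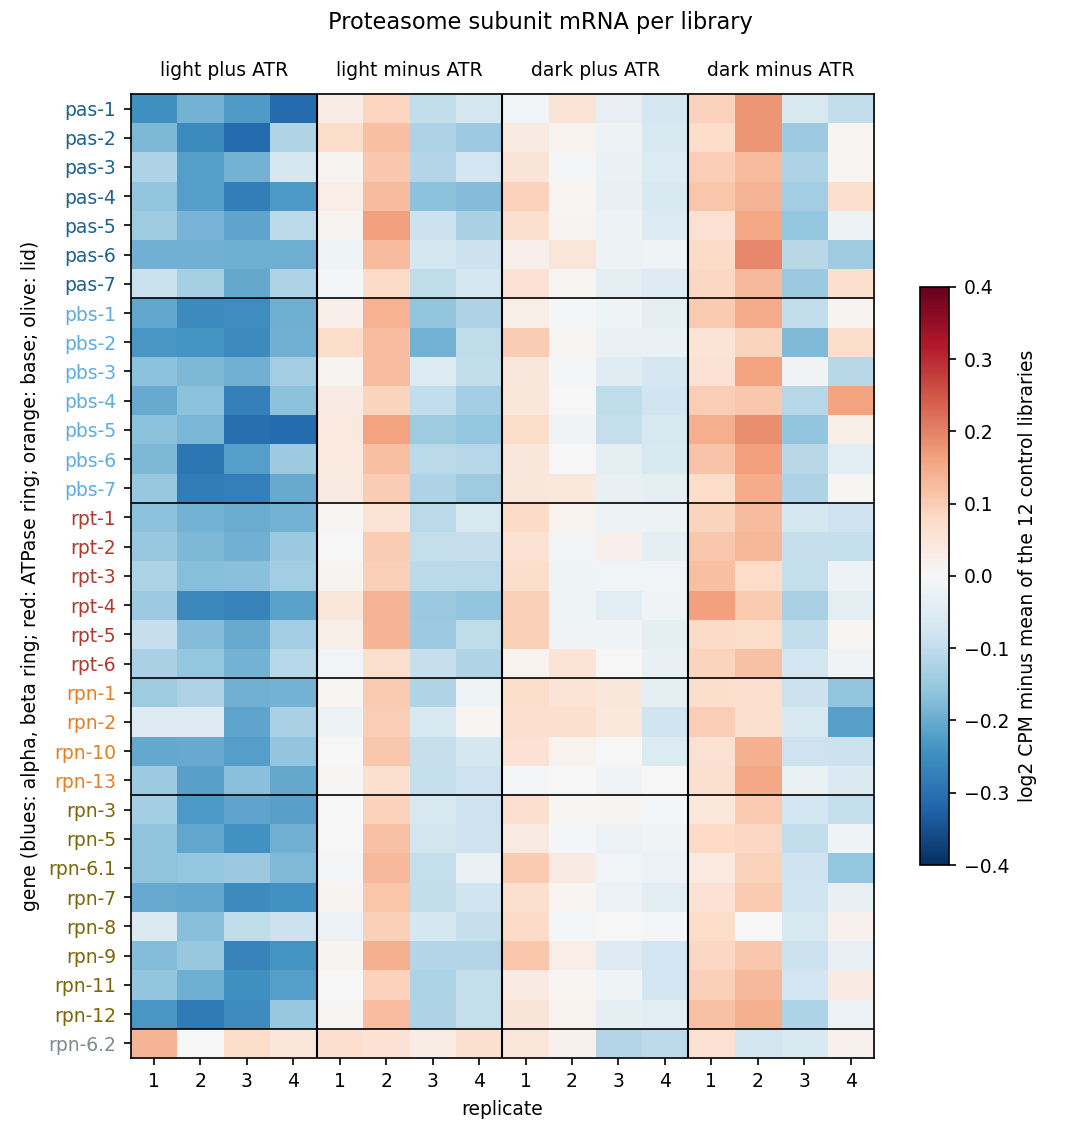
Each cell is the log2 CPM of 1 gene in 1 library minus the mean of that gene over the 12 control libraries. Rows are the 33 genes by place in the complex, columns the 4 replicates of each condition. The light+ATR columns are blue for 32 genes, while rpn-6.2 is not, and replicate 2 of light−ATR is the reddest of its group.

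In the steady state the subunit mRNAs lay within a narrow band. Compared on CPM per kb of exon, which allows levels of different genes to be set side by side, the 32 canonical genes of untreated worms (dark−ATR) ranged from 128 to 374 CPM per kb. The median of the 14 core particle genes was 247 CPM per kb and that of the 18 canonical regulatory genes 199. The highest was pbs-1 at 374 ± 27.8 CPM per kb (SD, n = 4), followed by pas-3 at 359 ± 27.6 and pas-5 at 317 ± 28.4. The difference between pbs-1 and pas-3 was smaller than the SD of either. The lowest canonical levels were those of rpn-10 at 138 ± 10.8 and rpn-6.1 at 128 ± 9.93, which also differed by less than the SD of either. By place in the complex, the medians in dark−ATR were highest in the alpha and beta rings and lowest in the base. This order of core above regulatory particle was seen in each condition (medians of 214 against 168 CPM per kb in light+ATR, 240 against 193 in light−ATR and 239 against 196 in dark+ATR). Genes of the core particle are short, with 801 to 1059 exon bases, while the longest of the whole set (rpn-1) has 3171.

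**Figure D2:**
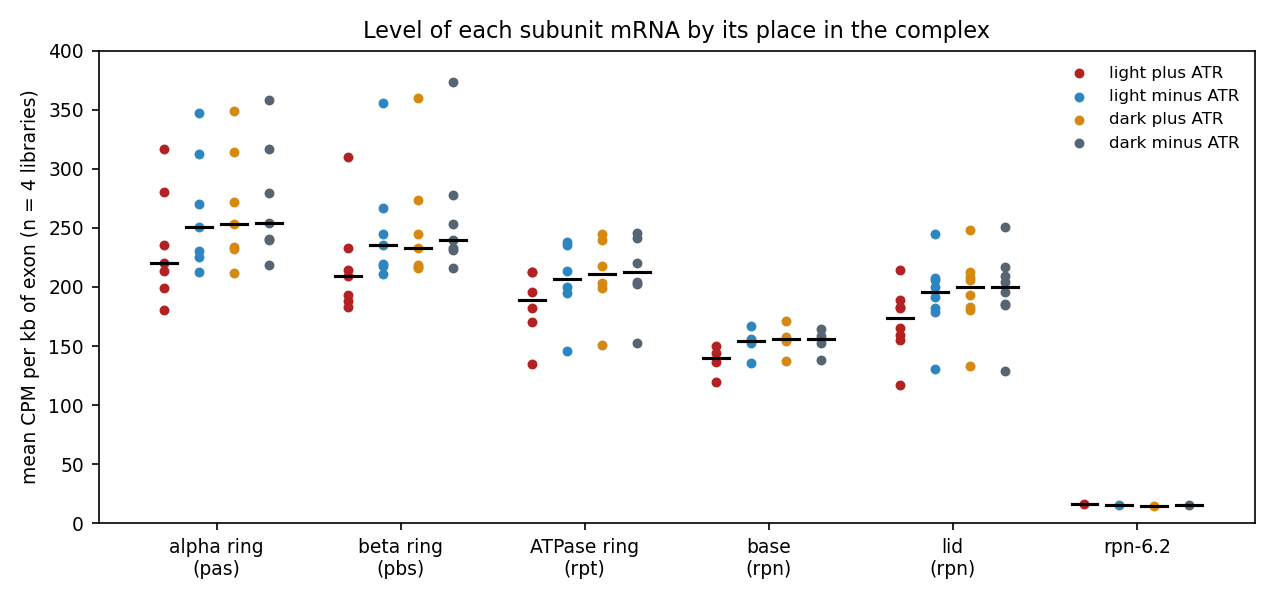
Mean CPM per kb of exon (n = 4 libraries) of each gene, one point per gene and condition, by place in the complex. The black bars are medians over genes. The core particle medians lie above those of the regulatory particle in each condition, and rpn-6.2, at 14.97 CPM per kb in dark−ATR, lies far below all others.

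Light+ATR was then compared with light−ATR, the comparison the study made to isolate muscle contraction from light. Proteasome subunit mRNAs were lower with ATR. Of the 33 genes, 21 were lower and 0 higher at an adjusted p under 0.05 (edgeR quasi-likelihood test, Benjamini-Hochberg over all genes tested), 9 of them in the core and 12 in the regulatory particle. Of all genes tested, 7.9% were lower and 8.39% higher by the same rule, and of the 1085 tested genes whose mean CPM lay in the range of the canonical subunits (150 to 517 CPM) 23.1% were lower. The fitted log2 fold change was negative for 32 of the 33 genes, with a median of -0.17, or -11.4%, where the median over all genes tested was 0.01. The changes were thus small and of like size, between -0.23 and -0.08 for the 32 canonical genes, with a median standard error of 0.0547. In 22 of the 33 genes all 4 libraries of light+ATR were below all 4 of light−ATR, which was so for 9.96% of all genes tested.

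How many genes passed depended on the scaling and on single libraries, whereas the sign of the canonical genes did not. With library totals in place of TMM factors only pas-1 and rpn-7 were called, and with ERCC spike-in totals 0 were (1334 genes were still called in either direction), although the fold change of the same number of genes (32 of 33) was negative under both. The median over all genes was then 0.08 and 0.05, and the core and regulatory medians were -0.12 and -0.09 with library totals and -0.15 and -0.12 with spike-in totals. Without replicate 2 of light−ATR the count was 2, without its replicate 1 it was 6, and without replicates 3 or 2 of light+ATR it was 8 or 10. The calls of pas-1 and rpn-7 held in each of the 8 fits with 1 library left out.

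Markers of tissues differed between the groups too. All 16 germline and oocyte markers were lower in sign in light+ATR, with 0 called against light−ATR, 10 against dark+ATR and 13 against dark−ATR. Their summed level was 14517 to 15573 CPM in light+ATR, below the 15824 to 16729 of light−ATR, the 16286 to 17345 of dark+ATR and the 16177 to 17478 of dark−ATR. Body wall muscle markers went the other way, at 6805 to 7221 CPM in light+ATR against 5494 to 6500 in light−ATR, with 7 of 10 called higher. Intestine markers were at 5439 to 5730 against 3721 to 4094 CPM (3 of 7 called higher, 1 lower), neuron markers at 394 to 406 against 355 to 375 (2 of 8 called higher), and sperm markers at 274 to 452 against 216 to 321 (10 of 10 higher in sign, 0 called). Against the dark groups all 10 sperm markers were called higher in both comparisons, with median log2 fold changes of 0.68 (dark+ATR) and 0.88 (dark−ATR), as were 9 and 10 of the 10 body wall muscle markers. Between light−ATR and dark−ATR all 10 sperm markers were higher in sign as well (median 0.54). There 10 had an unadjusted edgeR p under 0.05 and 0 were called, while 0 proteasome genes reached that unadjusted p. Of all 15044 genes tested 2012 reached it. The summed hypodermis markers, most of whose counts came from col-19, overlapped at 1244 to 1668 against 1516 to 1806 CPM. Of these 7 markers 5 were higher in sign against light−ATR (median 0.54 on the log2 scale). By the test 0 were higher and 1 lower. The 2 early embryo markers that were tested summed to 1.14 to 2.10 against 2.29 to 3.81 CPM (1 of 2 called lower). The largest counts in any library were 76 for pes-10, 18 for end-1, 11 for end-3 and 10 for sdz-1. They were 9 for tbx-37, 4 for med-2 and 1 for med-1. The order of libraries by proteasome and by germline sum varied between groups. In light−ATR replicate 2 was the highest in both. Replicate 1 was the second highest for proteasome genes (8878 CPM) and the lowest for germline. In light+ATR replicate 1 was the highest in both. In dark+ATR replicate 1 was the highest for proteasome genes and the lowest for germline. In dark−ATR replicate 3 was the lowest for proteasome genes and the highest for germline. The part of the marker shifts in the result was not tested, and in whole-worm RNA fewer cells of a type and less RNA per cell cannot be told apart.

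**Figure D3:**
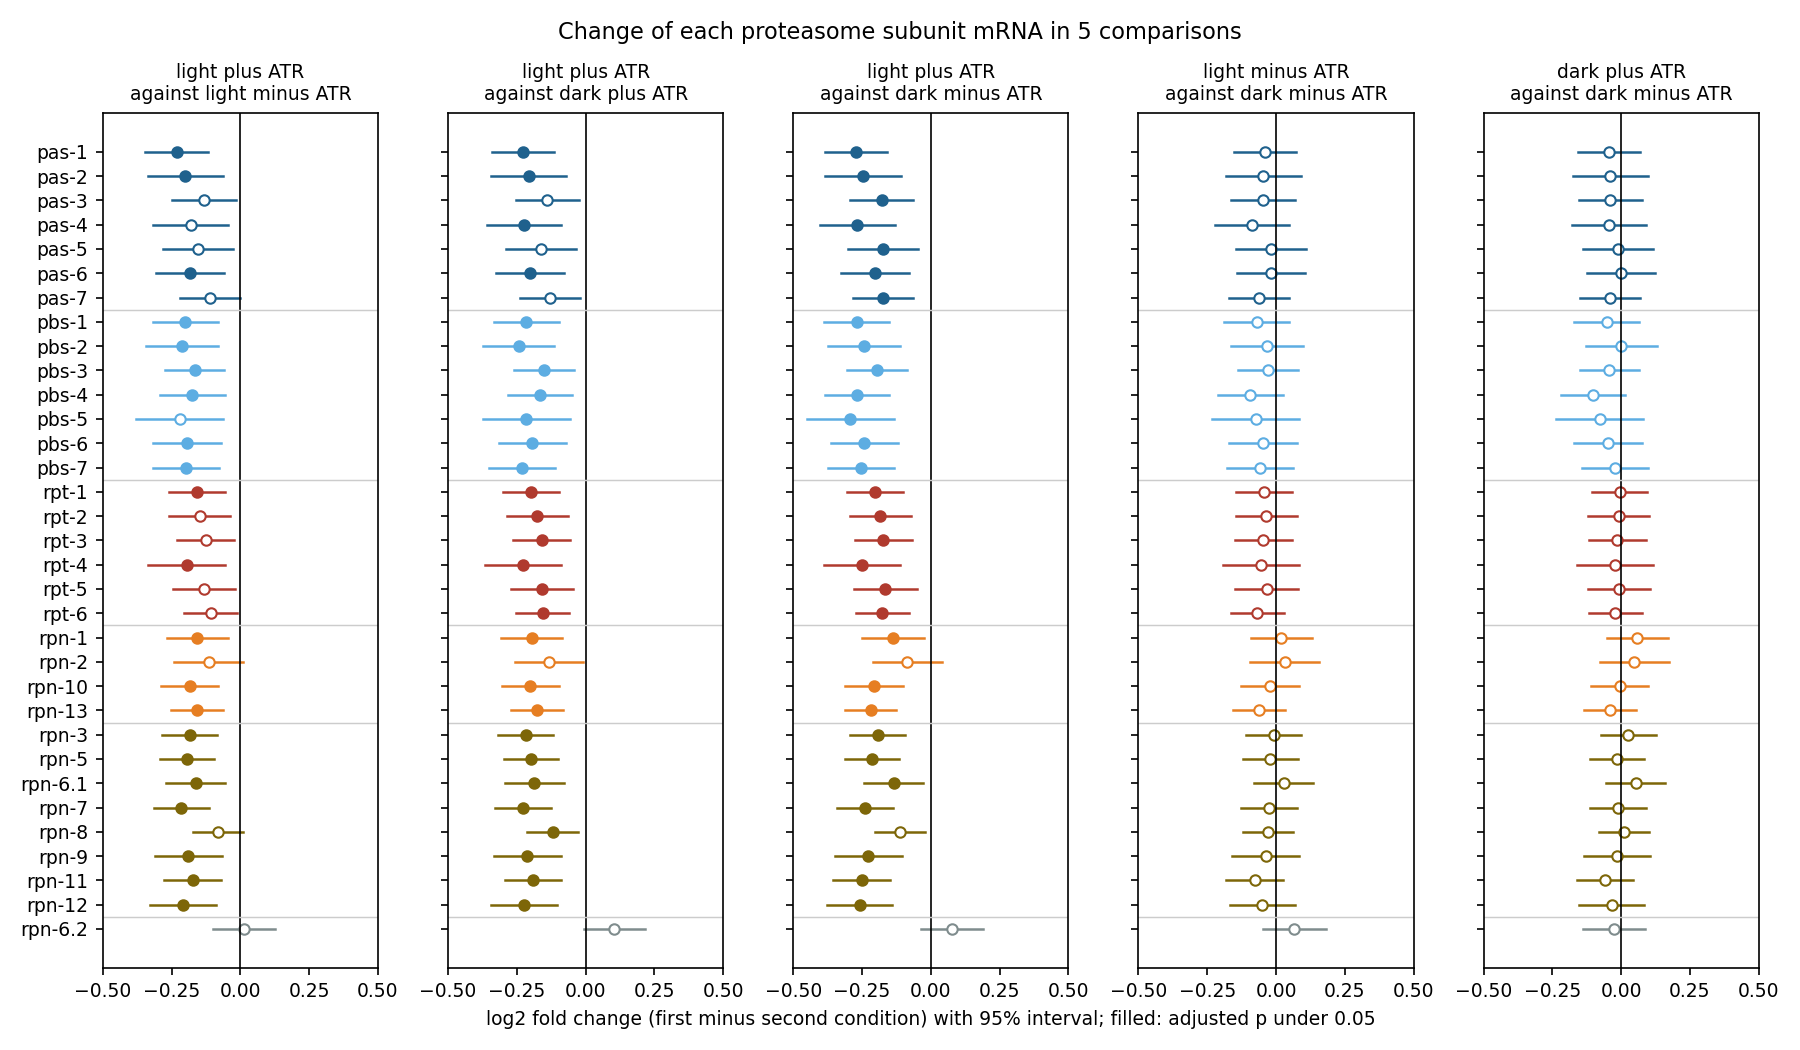
Log2 fold change of each gene with its 95% confidence interval in 5 comparisons (first minus second condition, n = 4 libraries each). Filled points have an adjusted p under 0.05 and colours mark the place in the complex. In the 3 comparisons with light+ATR the canonical genes lie left of 0, with 21, 28 and 30 of 33 filled, and in both comparisons between controls none is filled.

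In the alpha ring, which gates the barrel, 3 of 7 genes passed the test (pas-1, pas-2 and pas-6). The largest decrease of all members was that of pas-1 (WBGene00003922, chromosome V, 14421566 to 14422618, minus strand). Its CPM was 171, 178, 173 and 163 in the libraries of light+ATR and 207, 215, 189 and 193 in those of light−ATR, so that the groups did not overlap. It fell by 0.23 on the log2 scale, a change of -14.8% (95% CI -0.35 to -0.12, edgeR adjusted p = 0.00509). The 4 alpha genes that did not pass (pas-3, pas-4, pas-5 and pas-7) had log2 fold changes of -0.18 to -0.11 and overlapping groups. The ring's median was -0.18.

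In the beta ring, which carries the active sites, 6 of 7 genes passed, and the ring had a median of -0.20. Of the 3 catalytic subunits, pbs-1 (caspase-like site) had 258, 249.6, 251 and 260.4 CPM in light+ATR and 302, 328, 267 and 273 in light−ATR, and fell by 0.20 (SE 0.0570, edgeR adjusted p = 0.0192). The trypsin-like subunit pbs-2 had 183, 183, 181 and 189 CPM with ATR and 227, 235, 189 and 201 without it. Its highest library with ATR was level with its lowest without, at 189 CPM, yet by the unrounded values the groups did not overlap, and it fell by 0.21 (SE 0.0626, edgeR adjusted p = 0.0257). The chymotrypsin-like subunit pbs-5, the main peptidase activity of the complex, had 210.0, 207, 191 and 190.1 CPM against 242, 263, 213 and 212. Its log2 fold change of -0.22 was larger than those of pbs-1 and pbs-2, but its standard error of 0.0751 was larger too and it missed the threshold (edgeR adjusted p = 0.0546). The non-catalytic pbs-7 fell by 0.20 (204 against 234 CPM on average, edgeR adjusted p = 0.0219), but its exons overlap those of K07A12.5 on the same strand, so its counts are less certain.

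In the ATPase ring, which unfolds substrates and threads them into the core, 2 of 6 genes passed (rpt-1 and rpt-4), with a ring median of -0.14. The subunit rpt-3, which the study's text names, had 269, 261, 262 and 267 CPM in light+ATR and 296, 314, 273 and 273 in light−ATR. The 4 libraries with ATR were below the other 4, but the log2 fold change of -0.13 did not pass (95% CI -0.23 to -0.02, edgeR adjusted p = 0.0879).

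Of the 4 non-ATPase base genes 3 passed. The ubiquitin receptor rpn-10 had 153, 154, 152 and 158 CPM with ATR and 176, 191, 166 and 169 without it, and fell by 0.19 (SE 0.0504, edgeR adjusted p = 0.0141). The other ubiquitin receptor, rpn-13, fell by 0.16, from a mean of 227 to 204 CPM (SE 0.0453, edgeR adjusted p = 0.0201). The scaffold gene rpn-1 passed, whereas its partner rpn-2 had a log2 fold change of -0.12 and overlapping groups.

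In the lid 7 of 8 genes passed, with a median of -0.19, close to the 6 of 7 and -0.20 of the beta ring. Its structural subunit rpn-7 (WBGene00004463, chromosome IV, 9316631 to 9318632, plus strand) had the smallest p of all members. It was at 321, 319.6, 309 and 312 CPM in light+ATR and 372, 398, 345 and 349 in light−ATR, with no overlap, and fell by 0.21 (95% CI -0.32 to -0.11, edgeR adjusted p = 0.00384). The structural lid genes rpn-5 (273 against 312 CPM on average, -0.19, edgeR adjusted p = 0.00699), rpn-3 (339 against 386 CPM, -0.18, edgeR adjusted p = 0.0107) and rpn-12 (132 against 153 CPM, -0.21, edgeR adjusted p = 0.0149) followed. The deubiquitinase gene rpn-11, the lid's enzyme, had 233, 227, 219 and 223 CPM against 259.8, 277, 238 and 243 and fell by 0.17 (SE 0.0497, edgeR adjusted p = 0.0196). The subunit rpn-6.1, which braces the lid against the core and is known in C. elegans for its part in proteasome activity under stress, had 192, 193, 194 and 190.3 CPM against 214, 235, 201 and 211. It fell by 0.16 (edgeR adjusted p = 0.0360). The lid gene that did not pass was rpn-8, at -0.08 with overlapping groups. Leaving out 1 library at a time ended the calls of rpn-3, rpn-5, rpn-10 and rpn-12 in 1 of 8 fits each, the one without replicate 2 of light−ATR, in which 2 members were called. Those of pbs-1 and rpn-13 held in 6 of the 8 fits, that of rpn-11 in 5, those of pbs-2 and pbs-7 in 4 and that of rpn-6.1 in 3, and were lost without replicates 1 or 2 of light−ATR or 2, 3 or 4 of light+ATR.

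The copy rpn-6.2 (WBGene00010309, chromosome III, 8999817 to 9001999, minus strand) was expressed at a far lower level. Per kb of exon it was expressed at 14.97 CPM in dark−ATR, where rpn-6.1 was at 128. Its CPM was 25.9, 23.5, 24.7 and 24.3 in light+ATR, 24.6, 24.5, 24.0 and 24.6 in light−ATR, 24.3, 23.8, 21.7 and 21.9 in dark+ATR and 24.5, 22.4, 22.6 and 23.8 in dark−ATR. These ranges overlapped throughout. Its log2 fold change against light−ATR was 0.01 (95% CI -0.10 to 0.12, edgeR adjusted p = 0.909), an interval that includes a decrease of the size seen for rpn-8 but not the -0.16 of rpn-6.1. The sign of this value is not fixed, since it was -0.02 without replicate 1 of light+ATR. Reads that fit both copies may have been divided between them, so that both are less certain than single-copy members.

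Of the 33 genes, 11 share exon positions with another gene, 10 of them on the opposite strand (rpn-7, rpn-10 and rpn-11 among them). The libraries were made with a stranded kit, but whether strand was used in counting is not given in the sources used here. Of the 22 genes without such an overlap 13 passed, as did 8 of the 11 with one.

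Both particles were lower in light+ATR. The mean log2 CPM of the 14 core genes was 7.65 ± 0.0317 in light+ATR (SD, n = 4), 7.83 ± 0.115 in light−ATR, 7.85 ± 0.0470 in dark+ATR and 7.89 ± 0.117 in dark−ATR. For the 18 canonical regulatory genes it was 8.01 ± 0.0252, 8.17 ± 0.0939, 8.20 ± 0.0415 and 8.20 ± 0.0958. For both particles the 4 libraries of light+ATR were below all 12 control libraries. The difference between the particles did not separate the groups. Core minus regulatory was -0.37 to -0.34 on the log2 scale in light+ATR, -0.37 to -0.31 in light−ATR, -0.36 to -0.33 in dark+ATR and -0.37 to -0.27 in dark−ATR, and these ranges overlap. Unlike the levels, this quantity hardly depends on how libraries are scaled, by construction, since a factor per library cancels in the difference. CPM is not corrected for gene length, so its level does not give a ratio of molecules.

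Summed over the 32 canonical genes, the level was 7565 to 7927 CPM in light+ATR, against 8176 to 9500 in light−ATR, 8558 to 9179 in dark+ATR and 8233 to 9552 in dark−ATR. Light+ATR lay below each control, and the 3 controls overlapped. With library totals light+ATR (7867 to 8278 CPM) overlapped light−ATR (8169 to 9252) and dark−ATR (8111 to 9227) but not dark+ATR (8490 to 9076). With spike-in totals its range of 7392 to 8929 overlapped those of all 3 controls, and the spike-ins took 0.721% to 0.860% of the counts in its 4 libraries.

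**Figure D4:**
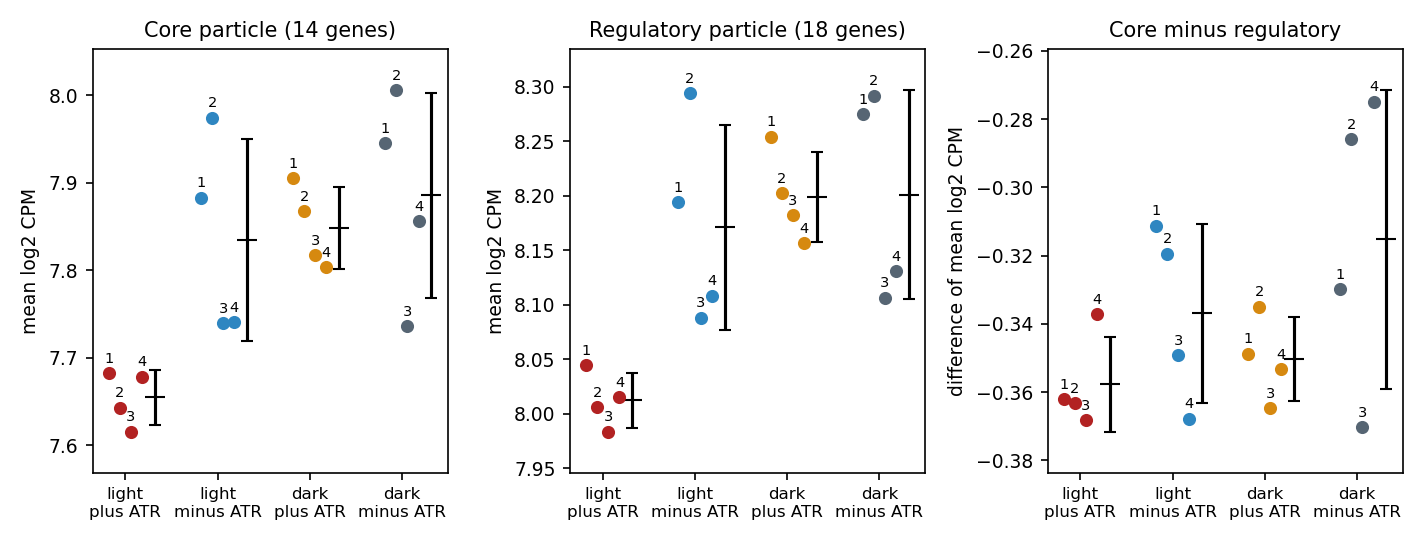
Mean log2 CPM over the 14 core genes (left) and the 18 canonical regulatory genes (middle) and their difference (right) in each library. Points are libraries with their replicate number, and bars are the mean and SD of 4. Light+ATR lies below all controls in the first panels and within their range in the third.

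Against dark+ATR, which shares the retinal but not the light pulses, subunit mRNAs were lower in light+ATR too. This comparison shares the light+ATR libraries with the one above and is not independent of it. Of the 33 genes 28 were lower and 0 higher (11 core and 17 regulatory), where 11.6% of all genes tested were lower and 16.2% higher, and 33.6% of those in the subunits' range of CPM were lower. In 31 genes the groups did not overlap, with the lower values in light+ATR, as in 13.3% of all genes tested. The median log2 fold change was -0.20. In the same comparison 10 of 16 germline and oocyte markers were called lower and 10 of 10 sperm markers higher, and their part was not tested. All 6 ATPase genes, all 7 beta genes and all 8 lid genes passed here, and pas-3, pas-5, pas-7, rpn-2 and rpn-6.2 did not. The smallest p were those of rpn-7, at 386, 371, 363 and 358 CPM in dark+ATR (log2 fold change -0.23, edgeR adjusted p = 0.00171), of rpn-3 at 408, 392, 392 and 388 (-0.22, edgeR adjusted p = 0.00218), and of pas-1 at 201, 210.3, 198 and 193 (-0.23, edgeR adjusted p = 0.00387). None of the 3 overlapped with light+ATR. The gene rpt-3 passed here, with 309, 290.4, 292 and 292 CPM in dark+ATR (-0.16, edgeR adjusted p = 0.0216), and so did pbs-5 (-0.22, edgeR adjusted p = 0.0405). Without replicate 1 of dark+ATR the count fell to 18. It was 9 with library totals, of which 8 were lower and the other one, rpn-6.2, was higher, and 0 with spike-in totals.

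Against dark−ATR, the untreated worms, 30 genes were lower and 0 higher (14 core and 16 regulatory), beside 16.5% lower and 20.4% higher of all genes tested and 39.5% lower of those in the same range of CPM. The groups did not overlap in 23 genes, with the lower values in light+ATR, as in 13.3% of all genes tested. Beside them 13 of 16 germline and oocyte markers were called lower and all 10 sperm and all 10 body wall muscle markers higher, and their part was not tested. The median of the 33 genes was -0.21, and all 14 core genes passed, with a core median of -0.24 and a regulatory median of -0.20. The smallest p belonged to rpn-11, at 277, 284, 246 and 265 CPM in dark−ATR (-0.25, edgeR adjusted p = 0.000574), to pas-1 at 216, 229, 193 and 189 (-0.27, edgeR adjusted p = 0.000645) and to rpn-7 at 384, 397, 349 and 361 (-0.24, edgeR adjusted p = 0.000725). In each of them the lowest library of dark−ATR was above the highest of light+ATR. The catalytic gene pbs-5 had the largest fall, by 0.29 (95% CI -0.45 to -0.13, edgeR adjusted p = 0.00556), with 260.1, 268, 211 and 239 CPM in dark−ATR. The 3 genes not called were rpn-8, rpn-2 and rpn-6.2. With library totals 13 were called (12 lower, and rpn-6.2 higher) and with spike-in totals 0, where 28 of 33 fold changes were negative.

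Over the 3 comparisons together, which share the light+ATR libraries, 21 genes were lower in each, 6 in a pair of them, 4 in a single one and 2 (rpn-2 and rpn-6.2) in none. Of all genes tested 6.56% were lower in each of the 3, and 19.8% of those in the subunits' range of CPM. In 20 of the 33 genes, 9 core and 11 regulatory, each of the 4 light+ATR libraries was below each of the 12 control libraries, which was so for 6.29% of all genes tested.

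Neither light nor ATR alone was followed by a detectable change. Between light−ATR and dark−ATR 0 of the 33 genes were called, 0 of them at an unadjusted p under 0.05, and 0 by DESeq2. Of all genes tested 0% were called, and 2012 of the 15044 had an unadjusted p under 0.05. The median log2 fold change was -0.04 and the 95% intervals of the 33 genes reached from -0.23 to 0.18, which leaves room for changes of the size seen in light+ATR. Between dark+ATR and dark−ATR 0 were called as well (0 at an unadjusted p under 0.05, and 0 by DESeq2). Of all genes tested 0.0665% were called there, and 1179 of the 15044 had an unadjusted p under 0.05. The median of the 33 genes was -0.02 and their intervals reached from -0.24 to 0.17. Scaling by spike-ins turned both medians positive, to 0.06 for the core and 0.07 for the regulatory genes in the first and 0.11 and 0.14 in the second, with 0 members called. That scaling moved the median of all genes by over 0.1 as well, to 0.11 and 0.15.

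Whether the change with ATR depends on light was tested by the interaction term. By edgeR 0 of the 33 genes were called, beside 5.23% of all genes tested, although 32 of 33 estimates were negative, with a median of -0.15. An unadjusted p under 0.05 was reached by 13 of the 33, beside 2494 of all 15044 genes tested. The smallest p was that of the lid gene rpn-3 (-0.21, 95% CI -0.35 to -0.07, edgeR adjusted p = 0.0822). DESeq2 called 2 genes, rpn-3 and rpn-7, and 2 (rpn-3 and rpn-6.1) were called by edgeR without replicate 2 of dark−ATR. With a block for replicate number more members were called than in these fits, and that count is given in the closing section. The difference of differences was therefore of about the size of the decrease under light itself, but its standard errors were larger, with a median of 0.0771.

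The genes around the proteasome were read in the same fits. Of the 5 genes that in C. elegans serve the transcription factor SKN-1, which raises subunit transcription when proteasome activity is impaired, the endoplasmic reticulum quality control genes sel-1 (-0.13, edgeR adjusted p = 0.0212) and sel-11 (-0.17, edgeR adjusted p = 0.0101) were lower in light+ATR than in light−ATR. The remaining 3 were skn-1 itself (-0.05, 95% CI -0.18 to 0.08), the glycanase gene png-1 (0.00, 95% CI -0.10 to 0.10) and the protease gene ddi-1 (-0.10, 95% CI -0.18 to -0.02), which did not pass.

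Of 11 genes listed as partners of the complex 8 were tested, and 5 were lower and 0 higher in light+ATR against light−ATR, with a median of -0.16 over the 8. The smallest p was that of rad-23, whose product shuttles ubiquitinated proteins to the proteasome. It had 326, 335, 338 and 328 CPM in light+ATR, 389, 408, 366 and 375 in light−ATR, 391, 381, 388 and 390.2 in dark+ATR and 392, 414, 376 and 362 in dark−ATR. All 4 libraries of light+ATR were below the 12 others. It fell by 0.21 against light−ATR (SE 0.0437, edgeR adjusted p = 0.00151), and its interaction term passed as well (-0.22, edgeR adjusted p = 0.0390). The others that were lower were the deubiquitinase gene ubh-4 (-0.17), the arsenite-inducible aip-1 (-0.17), the ubiquilin gene ubql-1 (-0.17) and the peptidase gene tpp-2 (-0.15). The small lid subunit gene dss-1, whose name lies outside the rule, was at -0.11 and did not pass (95% CI -0.24 to 0.02).

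Among 11 genes of ubiquitin supply and of the CDC-48 segregase, which extracts ubiquitinated proteins from complexes and membranes, 6 were lower and 0 higher in the same comparison, with a median of -0.13. They were the ubiquitin-activating enzyme gene uba-1, cdc-48.1, cdc-48.2, and the cofactor genes ufd-1, ufd-3 and npl-4.2. The smallest p was that of npl-4.2, at 122, 120.0, 121 and 119.3 CPM in light+ATR and 139, 141, 134 and 131 in light−ATR (-0.18, edgeR adjusted p = 0.00144). The polyubiquitin gene ubq-1 was at -0.09 and did not pass. Of 7 genes of the COP9 signalosome, a complex related in structure to the lid, 1 was lower (cif-1, -0.16, edgeR adjusted p = 0.0356), with a median of -0.10. Beside these counts the 7.9% of all genes tested that were lower applies. Against dark+ATR 3 of the 5 SKN-1 genes, 4 of the 8 partners, 7 of the 11 ubiquitin and CDC-48 genes and 4 of the 7 signalosome genes were lower, beside 11.6% of all genes tested. Against dark−ATR the counts were 4, 6, 9 and 4, beside 16.5% of all genes tested. Of genes in the subunits' range of CPM, 23.1% were lower against light−ATR, 33.6% against dark+ATR and 39.5% against dark−ATR. Some of the related genes, png-1 and ubq-1 among them, lie outside that range. The related lists were not read under the other scalings.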

How the data were processed

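Poly(A) RNA of 16 whole-worm libraries (TruSeq Stranded, ERCC spike-ins added) had been aligned to WBcel235 with Ensembl annotation in the nf-core RNA-seq pipeline (STAR, salmon), and the submitters' notes name R 4.0.3 and DESeq2 1.30.1. The authors deposited estimated counts per gene, and the series table named for TPM holds the same estimated counts. They were rounded to whole numbers. Genes low in all groups were removed with filterByExpr and spike-ins were kept out of library sizes. All 16 libraries were fitted together with TMM factors by robust quasi-likelihood in edgeR 4.0.16 (limma 3.58.1, R 4.3.3), with Benjamini-Hochberg adjustment over 15044 genes and a threshold of 0.05. Alternatives were DESeq2 1.42.0, other scalings, no filter, only the compared groups, a replicate block and leaving out each library. The fit was also run on simulated counts, with as many genes raised as lowered and libraries drawn independently. Such counts cannot test the dependence on scaling or on single libraries. Exon lengths and overlaps came from the Ensembl annotation of the same build (GenomicRanges 1.54.1). P-values measure the spread between worm populations.

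The members and lists were chosen with earlier results of these data known. Full values are given for pbs-1, pbs-2, pbs-5, rpt-3, rpn-6.1, rpn-10, rpn-11 and rpn-6.2, for up to 10 members with the smallest p among those past the threshold and the 3 largest changes in each direction against light−ATR, and for up to 3 by smallest p in each other comparison. Related genes that did not pass were named after their values were seen.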

Additional observations from a re-analysis of the deposited data

Results flagged for a closer look

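In 2 of the 76 groups of 4 libraries examined (the named proteasome genes and the levels of both particles in each condition), 1 library lay far from the other 3 by Dixon's criterion, which chance alone meets in about 1 in 20 groups. The catalytic gene pbs-2 was at 191 CPM in replicate 3 of dark−ATR, where the other libraries had 224 to 229 CPM. The ATPase gene rpt-3 was at 309 CPM in replicate 1 of dark+ATR, where the others had 290.4 to 292 CPM.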

How the results depend on the processing

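Against light−ATR, 21 members were called, 2 with library totals in place of TMM, 0 with ERCC spike-in totals and 2 to 25 with 1 library left out (fewest without light−ATR replicate 2). Against dark+ATR the 28 became 9, 0 and 18 to 29, and against dark−ATR the 30 became 13, 0 and 23 to 31. The interaction had 0 calls, 5 with the replicate block, 2 by DESeq2 and 0 to 2 with 1 library left out. The log2 fold change of rpn-6.2 against light−ATR turned to -0.0190 without light+ATR replicate 1 and lay between -0.0190 and 0.0294 over the fits with 1 library left out. The spike-in scaling differs by construction in resting on 0.721% to 0.953% of counts, and why it ended the calls was not tested. DESeq2, RLE factors, no filter and only the compared groups kept the counts of the 3 comparisons with light+ATR within 1.5 times.

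Same-numbered libraries of light−ATR and dark−ATR tended to deviate together, with correlations over 0.1 in 3 of 4 pairs and 6 of 8 libraries correlating best with their own number. For light+ATR and light−ATR 1 of 4 pairs was over 0.1, and for no pair of groups were all 4, so the numbers were not taken as pairs. The summed CPM of the canonical genes put replicates 1 and 2 above 3 and 4 in all 3 control groups. The values were 8878 and 9500 against 8176 and 8272 in light−ATR and 9179 and 8888 against 8709 and 8558 in dark+ATR. In dark−ATR they were 9347 and 9552 against 8233 and 8546. Light+ATR did not share this order (7927 and 7723 against 7565 and 7795). A shared effect of replicate was not removed from the main fit. With the replicate block, 27, 32 and 31 members were called in the 3 comparisons with light+ATR. In the other pairs of groups 2 or 3 of 8 libraries correlated best with their own number. The promoter motif description that was planned was not run.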
